A study of Mus musculus with 116 samples.

Results

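Lung and endothelial lineage transcription factors were followed across the mouse cell lines C10 and SVEC as a set of 10 listed genes among the 40202 gene symbols of the count files. They comprise 3 factors of the lung epithelium, Nkx2-1, Foxa1 and Foxa2, and 7 factors of the endothelium, Sox17, Sox18, Erg, Fli1, Ets1, Klf2 and Gata2. The list was given by name, and each symbol was found in the files. Per the labels, C10 stems from alveolar type II epithelium, whose cells make lung surfactant, and SVEC is endothelial, from the inner lining of vessels. Both lines were grown by standard culture with no treatment, and no strain, age or allele was given. Libraries came from nanoSPLITS, which divides the nanolitre droplet of a lysed cell, or of a small pool, between RNA sequencing and proteomics. The RNA side held 48 single-cell libraries of each line and a C10 input series of 1 cell (n = 8), 3 cells (n = 6) and 10 cells (n = 6).

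Nkx2-1, a homeodomain protein, and the forkhead proteins Foxa1 and Foxa2 open and drive the genes of the lung epithelium, among them those of surfactant. In endothelium, the ETS proteins Erg, Fli1 and Ets1 bind the enhancers of vessel genes, the SoxF proteins Sox17 and Sox18 act in arterial and lymphatic development, Klf2 responds to blood flow, and Gata2 is used in both vascular and blood-forming cells. None of these factors is made in a single tissue alone, and Ets1, Klf2 and Gata2 also occur in many other cell types.

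Because some of the endothelial members are close relatives, their coding sequences were compared to see how far a read of 150 bases could tell them apart. The windows of that length in which each pair is most alike are shown from the GENCODE transcripts of GRCm38, 5′ to 3′ on the coding strand, with the bases that differ within the pair in capitals. The Sox windows span an intron, so their genomic span is longer than the window.
Sox17 (chr1:4492562-4493142, - strand): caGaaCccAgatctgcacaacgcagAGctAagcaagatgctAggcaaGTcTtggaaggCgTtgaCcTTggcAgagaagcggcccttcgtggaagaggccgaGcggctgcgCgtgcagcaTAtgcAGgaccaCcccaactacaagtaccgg
Sox18 (chr2:181670890-181671224, - strand): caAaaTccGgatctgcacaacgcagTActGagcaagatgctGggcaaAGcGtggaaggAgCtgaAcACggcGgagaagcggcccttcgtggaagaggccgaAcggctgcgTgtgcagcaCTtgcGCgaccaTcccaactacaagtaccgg
Erg (chr16:95361109-95361258, - strand): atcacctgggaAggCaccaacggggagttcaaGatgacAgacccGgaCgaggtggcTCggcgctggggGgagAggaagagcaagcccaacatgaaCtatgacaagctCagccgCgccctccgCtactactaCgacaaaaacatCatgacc
Fli1 (chr9:32424088-32424237, - strand): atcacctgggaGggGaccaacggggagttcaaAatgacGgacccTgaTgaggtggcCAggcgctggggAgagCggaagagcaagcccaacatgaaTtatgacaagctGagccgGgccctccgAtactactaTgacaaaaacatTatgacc
Erg and Fli1 differed at 16 of the 150 bases in their window (89.3% identity, longest shared run 22), and Sox17 and Sox18 at 23 bases (84.7% identity, longest shared run 29). Ets1 was more distant from Fli1 and from Erg, with 37 differing bases in each pair. No window of 150 coding bases was therefore the same between the members compared. Nkx2-1 overlaps the antisense gene Gm26973, and the strand setting of the counting is not given in the sources used here. Gm26973 held 16 counts in the C10 single cells, 6 in the SVEC single cells, 0 in the 1-cell libraries, 13 in the 3-cell pools and 16 in the 10-cell pools.

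Libraries with at least 100000 gene counts were used, which kept 45 C10 and 42 SVEC single cells and every library of the input series, 107 of 116 in all. Gene counts ranged from 147254 to 5911755 in the C10 single cells and from 130944 to 2831907 in the SVEC single cells, so C10 cells were read more deeply. They ranged from 430798 to 15385625 in the 1-cell libraries, from 6889508 to 14018116 in the 3-cell pools and from 8313314 to 14778988 in the 10-cell pools. The 1-cell library with 430798 counts, replicate 1, stood apart with 538 genes detected and 64.6% of its counts on mitochondrial genes. Of 8 alveolar type II markers, 5 (Sftpa1, Sftpb, Sftpc, Sftpd and Slc34a2) had no count in the C10 single cells or in the 10-cell pools. Of 12 endothelial markers, 6 (Cldn5, Emcn, Esam, Kdr, Tie1 and Vwf) had no count in the SVEC single cells, whose summed level over the list had a median of 0 and a range of 0 to 138 CPM (counts per 1000000 gene counts). Of the other alveolar markers, Abca3 had a count in 14 of 45 C10 cells, 6 of 42 SVEC cells and 5 of 6 10-cell pools, and Lamp3 in 10, 7 and 4 of the same libraries. Of 6 epithelial markers, the cadherin gene Cdh1 had a count in 53.3% of C10 cells, 2.38% of SVEC cells and all 6 10-cell pools. Its level was low, with 67 counts in the C10 single cells and a mean of 1.03 CPM. In the same cells Krt8 had no count and Epcam had a count in 1 of 45. In the 10-cell pools 0 of the 6 markers lacked a count, and their sum ranged from 2.42 to 83.4 CPM. Epcam was in 4 of 6 of these pools, at a mean of 12.8 ± 29.7 CPM (SD, n = 6). In the 1-cell libraries 3 of the markers (Epcam, Krt19 and Krt7) were at 0. Krt8 had counts there, and the sum ranged from 0 to 427 CPM. The summed level over the 6 markers in C10 single cells had a median of 0.777 CPM and a range of 0 to 239 CPM. In SVEC 5 of the 6 were at 0. Of the endothelial markers, Flt1 had a count in 8 of 42 SVEC cells and 13 of 45 C10 cells, at means of 13.0 and 0.605 CPM. Summed mesenchymal markers (12 genes, among them Dcn, Acta2 and Col1a1) ranged from 881 to 15621 CPM in the C10 single cells and from 110 to 9984 CPM in the SVEC single cells. Not all 12 were read: 3 (Lum, Prrx1 and Tagln) were at 0 in the C10 cells and 2 (Lum and Tagln) in the SVEC cells. Col1a2 had a count in 6 of 45 C10 cells and 9 of 42 SVEC cells. Mean levels of Dcn and Acta2 were 2634 and 1606 CPM in C10 and 1192 and 788 CPM in SVEC. Of 10 blood markers, 7 were at 0 in each line. The part of these other cell programmes in the levels of the lineage factors was not tested. Each single-cell library is 1 cell and no separate cultures are named, so each line counts as 1 sample and no p-value is given between the lines.

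The deep 10-cell pools were read first, since the most genes were detected in them (a median of 12986). Of the 10 members, 6 had a count in at least 1 of the 6 pools and 4 (Nkx2-1, Foxa1, Sox17 and Fli1) had none, where 55.9% of all gene symbols had none. Ets1 and Gata2 had counts in all 6 pools, a property of 20.3% of gene symbols, Klf2 in 5, Foxa2 in 3, Erg in 2 and Sox18 in 1. A count of 0 over the 68975982 gene counts of these pools allows a level of up to 0.0435 CPM, taken as 3 counts of the total. Such floors cover counting error only, and no molecular identifiers were described, so PCR copies count as reads. The intervals below are on the share of libraries with a count and cover only the sampling of libraries. In a pool, fewer expressing cells and less RNA per cell cannot be told apart.

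**Figure D1:**
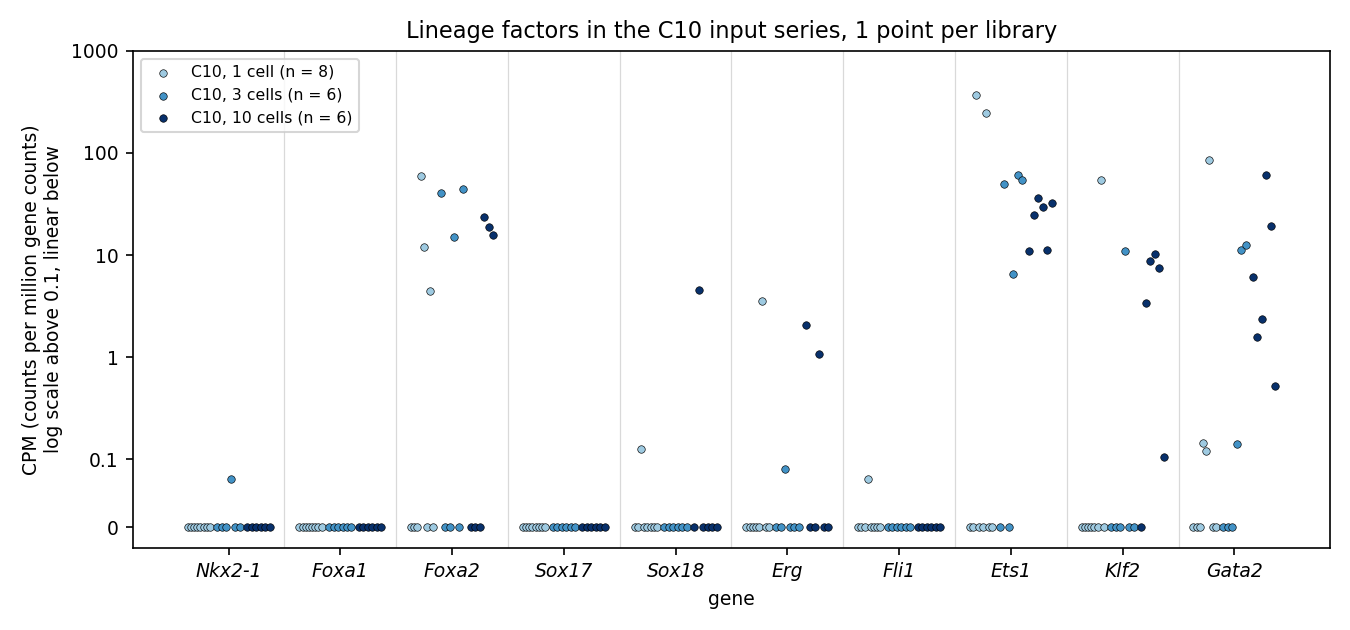
CPM of each lineage factor (log scale above 0.1, linear below) in the 20 libraries of the C10 input series, 1 point per library, coloured by the number of cells in it (8, 6 and 6 libraries). Ets1 and Gata2 lie above 0 in every 10-cell pool, whereas Nkx2-1, Foxa1, Sox17 and Fli1 lie at 0 in all 6.

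Nkx2-1, the homeodomain factor that marks lung and thyroid epithelium, was detected in 1 of the 107 libraries. That library was 3-cell pool replicate 6, with 1 count (0.0713 CPM) in 14018116. It had no count in any of the 45 C10 single cells, the 8 1-cell libraries or the 6 10-cell pools, nor in the 42 SVEC single cells. The floors for these zeros were 0.0302 CPM in the C10 single cells, 0.0378 CPM in the 1-cell libraries and 0.104 CPM in the SVEC single cells. With 1 count in all, Nkx2-1 was not detectable above the floor in C10 at this depth.

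Foxa1, a pioneer factor of endodermal epithelia, was also found in 1 library alone, but at a high level. C10 single cell replicate 11 held 527 counts of it, or 196 CPM. The other 44 C10 single cells, the 20 libraries of the input series and the SVEC single cells had none. The share of C10 single cells with a count was 2.22% (exact Clopper-Pearson 95% interval 0.0562 to 11.8%). At that share, 1.21 of 6 pools of 10 independent cells would hold such a cell, with 0.0337 to 4.28 over the interval, and 0 did.

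Foxa2, the close relative of Foxa1 that acts in lung and other foregut epithelia, was the lung factor with the most counts, 3880 over 26 libraries. In the C10 single cells its lowest and median values were 0 and its highest was 103 CPM, and 13 of 45 cells had a count (28.9%, interval 16.4 to 44.3%). The positive C10 cells lay between 0.362 and 103 CPM with a median of 26.5 CPM, and 11 of the 13 held at least 10 counts. Of the SVEC single cells 4 of 42 had a count (9.52%, interval 2.66 to 22.6%), at 15.1, 29.7, 39.6 and 114 CPM. Foxa2 was thus also read in the line labelled endothelial, and its positive cells there fell above the C10 range in 1 case. Among the 1-cell libraries it reached 59.0 CPM in replicate 6, 12.0 in replicate 9 and 4.41 in replicate 13, with 0 in the other 5. The 3-cell pools gave 40.1, 14.9 and 44.4 CPM in replicates 1, 6 and 10 and 0 in the other 3. The 10-cell pools gave 23.7, 18.9 and 15.8 CPM in replicates 6, 9 and 10 and 0 in replicates 1, 2 and 5. Foxa2 was therefore either absent or present at more than 100 counts in every pool of either size.

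Sox17, a SoxF factor of arterial endothelium and of endoderm, had 0 counts in all 107 libraries, as did 48.4% of gene symbols. Over the 341571761 gene counts of those libraries this allows a level of up to 0.00878 CPM. Sox18, its relative in vascular and lymphatic development, had 58 counts in 2 libraries. Of these, 57 (4.50 CPM) were in 10-cell pool replicate 2 and 1 (0.127 CPM) was in 1-cell library replicate 5. No C10 or SVEC single cell had a count of Sox18, and neither did the 3-cell pools.

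Erg, an ETS factor that endothelial cells keep throughout life, had 72 counts in 5 libraries. These were 1-cell library replicate 10 with 42 counts (3.51 CPM), 10-cell pools replicates 1 and 6 with 17 and 11 counts (2.04 and 1.08 CPM), 3-cell pool replicate 5 with 1 count and 1 SVEC cell with 1 count. All but the last of these libraries were of the line labelled epithelial. None of the 45 C10 single cells had a count of Erg, which allows up to 0.0302 CPM over the group. Fli1, the ETS factor nearest to Erg, had 15 counts in 4 libraries. SVEC cell replicate 39 held 12 of them (34.9 CPM), C10 single cells replicates 8 and 44 held 1 each, and 1-cell library replicate 6 held 1. The 3-cell and 10-cell pools had no Fli1 count. The SVEC cell with Fli1 was also the SVEC cell with the Erg count, and it held 4 counts of Ets1, in a total of 343655. It had 1 count of Plvap and none of the other 22 genes of the endothelial target list. It was singled out after its values were seen.

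Ets1, an ETS factor of endothelium and lymphocytes and of cells that invade or migrate, was the member with the most counts, 11379 over 35 libraries. The 10-cell pools held 10.9, 24.4, 36.0, 29.8, 11.2 and 32.3 CPM in replicates 1, 2, 5, 6, 9 and 10, a mean of 24.1 ± 10.8 CPM (SD, n = 6). No pool of 10 cells lacked it, and the lowest and highest differed by less than 4-fold. The 3-cell pools held 49.97, 6.56, 60.1 and 54.3 CPM in replicates 2, 6, 9 and 10 and 0 in replicates 1 and 5. In the 1-cell libraries it was at 367 CPM in replicate 5, 245 CPM in replicate 10 and 0 in the other 6. Those single cells exceeded every pool, and the other single cells of the same series had no count. Of the C10 single cells 11 of 45 had a count (24.4%, interval 12.9 to 39.5%), with positive values of 3.68 to 121 CPM and a median of 71.9 CPM. Of the SVEC single cells 12 of 42 did (28.6%, interval 15.7 to 44.6%), with positive values of 1.07 to 214 CPM and a median of 31.3 CPM. Both lines overlapped over nearly their whole range.

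Klf2, a zinc-finger factor that endothelium raises under laminar flow and that also keeps T cells quiescent, was detected in 24 libraries with 1681 counts. Of the C10 single cells 13 of 45 had a count (28.9%, interval 16.4 to 44.3%), between 0.169 and 165 CPM with a median of 5.48 CPM. The highest of them, replicate 24, held 188 of the 394 counts of that group. Of the SVEC single cells 4 of 42 had a count (9.52%, interval 2.66 to 22.6%), at 0.626, 2.11, 2.12 and 35.2 CPM. These rested on 1, 1, 2 and 8 counts, so that none reached 10. The 10-cell pools held 3.40, 8.66, 10.2, 7.44 and 0.105 CPM in replicates 2, 5, 6, 9 and 10 and 0 in replicate 1. The value of replicate 10 was 1 count. Only 1 of the 3-cell pools (replicate 6, 11.0 CPM) and 1 of the 1-cell libraries (replicate 13, 54.8 CPM) had Klf2.

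Gata2, a zinc-finger factor of endothelium and of blood stem cells, had 2538 counts in 28 libraries. Its 10-cell pools held 6.13, 1.58, 2.37, 60.3, 19.4 and 0.525 CPM in replicates 1, 2, 5, 6, 9 and 10. It was present in each of them, but the highest held 614 counts and the lowest 5, a wider range than that of Ets1. The 3-cell pools held 0.143, 11.1 and 12.5 CPM in replicates 6, 9 and 10 and 0 in the other 3. Among the 1-cell libraries replicate 10 held 86.0 CPM, replicates 6 and 9 held 0.143 and 0.120 CPM (2 counts and 1 count), and the other 5 held 0. Of the C10 single cells 10 of 45 had a count (22.2%, interval 11.2 to 37.1%), between 1.19 and 51.5 CPM. Of the SVEC single cells 6 of 42 did (14.3%, interval 5.43 to 28.5%), between 1.25 and 23.5 CPM. The ranges of positive cells in both lines overlapped.

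**Figure D2:**
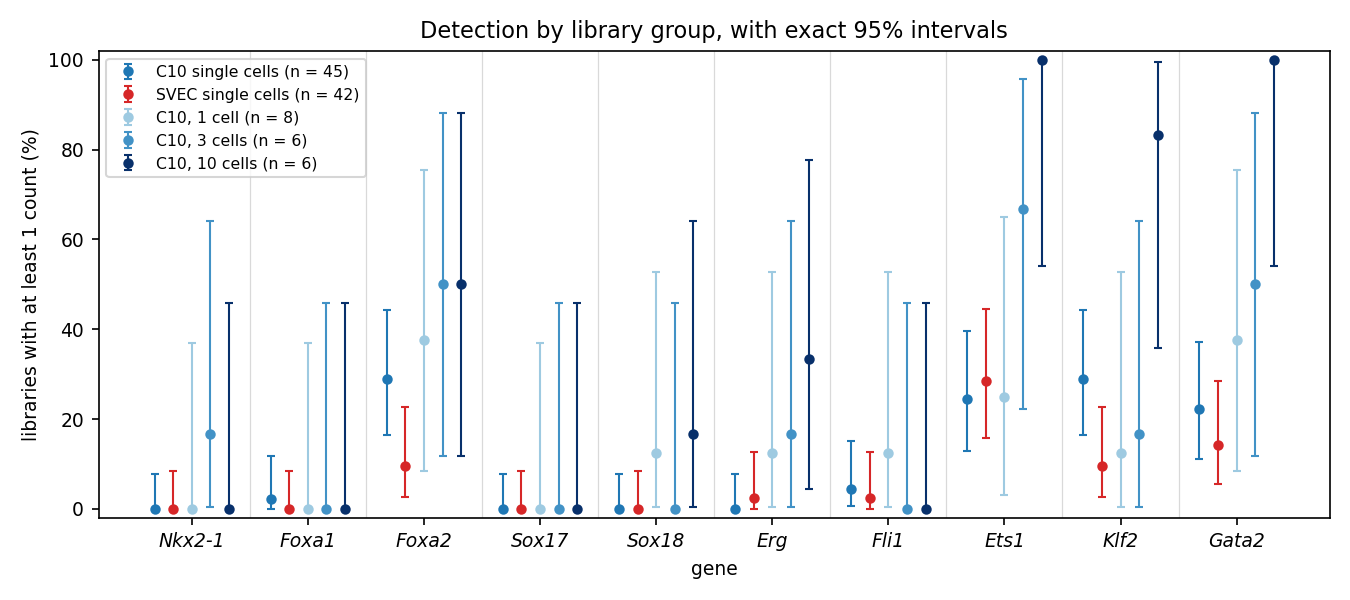
Percent of libraries with at least 1 count of each lineage factor in the 5 library groups, with exact Clopper-Pearson 95% intervals. Ets1 and Gata2 rise to 100% in the 10-cell pools from 24.4 and 22.2% of C10 single cells, and Sox17 is at 0% throughout.

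Detection in pools was then set beside what the single cells would give if cells were independent. The share of positive cells is taken as given, so this cannot tell cells that lack a transcript from cells in which it was missed. From the share of positive C10 single cells, 5.64 of 6 10-cell pools were computed to hold Ets1 (4.49 to 5.96 over the interval of the share), and 6 did. For Gata2 the number was 5.51 (4.17 to 5.94), and 6 did. For Klf2 it was 5.80 (5.00 to 5.98), and 5 did. The zeros of Ets1, Gata2 and Klf2 in most single cells thus lay beside near-complete detection once 10 cells were pooled. For Foxa2 5.80 pools (5.00 to 5.98) were computed and 3 held it. For Fli1 2.19 (0.318 to 4.84) were computed and 0 held it, from 1 count in each of 2 cells. These intervals carry the error of the single-cell share alone and not that of having 6 pools. The 50% of pools found with Foxa2 has an exact interval of 11.8 to 88.2%, so a shortfall of Foxa2 is not established. At least 2 fewer 10-cell pools than computed were found for 7.23% of the 16616 genes with a count in a C10 single cell. In the 3-cell pools Foxa2 was computed in 3.84 pools and found in 3, and Klf2 was computed in 3.84 and found in 1. Taking the share from the 1-cell libraries instead gave 5.95 10-cell pools for Foxa2 (3.54 to 6), and 5.98 (3.88 to 6) without 1-cell replicate 1. This calculation takes no account of depth: pools were read more deeply than single cells, but their reads are shared among more cells.

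**Figure D3:**
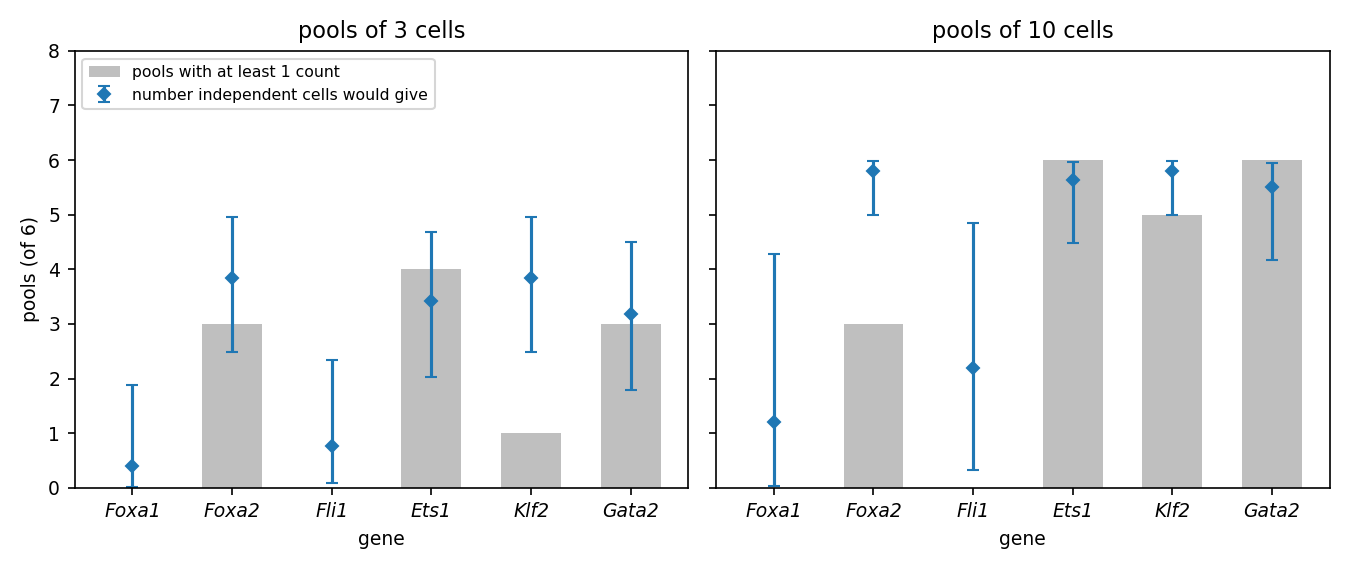
Number of the 6 pools of 3 cells (left) and of 10 cells (right) with at least 1 count (grey bars) and the number computed from the share of positive C10 single cells if cells were independent (diamonds), for the 6 members with a count in a C10 single cell. Vertical lines span the exact 95% interval of that share. For 10-cell pools the Foxa2 bar of 3 lies under its interval of 5.00 to 5.98, which leaves out the error from having only 6 pools. The exact 95% interval of the 3 of 6 pools is 11.8 to 88.2%.

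Levels were compared between genes per kilobase of exon (CPM per kb), because reads of full-length cDNA scale with transcript length. In the 10-cell pools the mean level was 4.11 ± 4.63 CPM per kb for Foxa2, 2.84 ± 1.27 for Ets1, 2.79 ± 4.30 for Gata2 and 2.69 ± 2.40 for Klf2 (SD, n = 6). These 4 did not differ from their neighbours in the order beyond the spread between pools. Sox18 followed at 0.463 ± 1.13 and Erg at 0.150 ± 0.249 CPM per kb, each below the lowest of those means. In the C10 single cells the mean levels were 4.65 CPM per kb for Foxa2, 3.12 for Klf2, 1.71 for Ets1, 1.31 for Foxa1 (from 1 cell) and 0.478 for Gata2. In the SVEC single cells they were 1.99 for Foxa2, 1.91 for Ets1, 0.516 for Klf2, 0.238 for Fli1 (from 1 cell) and 0.184 for Gata2. The order was not the same in every group: in the 1-cell libraries Ets1 was at 9.03 ± 17.2 CPM per kb and Foxa2 at 3.98 ± 8.64 (SD, n = 8), and in the 3-cell pools Foxa2 was at 6.99 ± 8.76 and Ets1 at 3.36 ± 3.43 (SD, n = 6). The SVEC value of Foxa2 lay close to that of Ets1 and rested in part on replicate 23, without which the mean of Foxa2 fell from 4.72 to 2.06 CPM. The coefficient of variation (SD over mean) of Ets1 CPM was 2.29 in C10 single cells, 1.90 in 1-cell libraries, 1.02 in 3-cell pools and 0.446 in 10-cell pools. For Foxa2 it was 2.15, 2.17, 1.25 and 1.13 in the same order, for Klf2 4.36, 2.83, 2.45 and 0.891, and for Gata2 3.31, 2.82, 1.54 and 1.54. Depth differed between these groups, and its part in the spread was not tested.

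The 10-cell pools were tested against the 3-cell pools with edgeR's quasi-likelihood test over 13602 genes, of which 0% passed a Benjamini-Hochberg adjusted p of 0.05. At that adjusted p DESeq2 called 564 genes and limma on log2(CPM + 1) called 14. At an unadjusted p under 0.05 the numbers were 1592 for edgeR, 1588 for DESeq2 and 1345 for limma. Foxa2, Ets1, Klf2 and Gata2 had counts in enough pools to be fitted, and none passed under edgeR. The log2 fold change of 10 over 3 cells was 1.69 (SE 1.85, adjusted p = 0.971) for Gata2 and 1.31 (SE 2.01, adjusted p = 0.997) for Klf2. For Ets1 it was -0.39 (SE 1.39) and for Foxa2 -0.99 (SE 2.15), each with an edgeR adjusted p of 0.997. The sign for Ets1 turned with limma (1.13) and without 3-cell replicate 9 (0.000697). Leaving out 3-cell replicate 6, the 3-cell pool with Klf2, moved the Klf2 value to 8.69, a fitted value that then depends on the prior count, and leaving out 10-cell replicate 6 moved the Gata2 value to 0.47. With standard errors above 1 on the log2 scale, a difference of a few fold was not detectable in these pools. Nothing names the pools as separate cultures, so these p-values measure only the spread between these libraries.

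Between the lines, Foxa2 and Klf2 were higher in the C10 single cells by more than the 2-fold that was used as the rule, and Ets1 was not. A gene entered this comparison if at least 25% of the cells of a line had a count, and 3 members did. Foxa2 and Klf2 entered by way of C10 alone (28.9% of cells against 9.52% in SVEC for each). Ets1 entered by way of SVEC alone (28.6% against 24.4%). The filter thus took in Foxa2 and Klf2 through the line in which they were higher, and that line was read more deeply. The rule marked 32.3% of the 9318 genes compared, 15.3% as higher in C10 and 17% as higher in SVEC. Mean CPM of Foxa2 was 11.0 in C10 and 4.72 in SVEC, a log2 ratio of 1.07 on the scale of CPM + 1, which understates the change of low genes. Without any 1 of 6 C10 cells (replicates 6, 11, 12, 18, 27 and 34) the ratio of Foxa2 fell under 1, to 0.80 at the lowest without replicate 34, and without SVEC replicate 23 it was 1.98. From summed counts it was 0.62. Mean CPM of Klf2 was 5.77 in C10 and 0.95 in SVEC, a log2 ratio of 1.79. Without C10 replicate 24 that of Klf2 was 0.68, and without SVEC replicate 1 it was 2.60, so the call rested on 1 cell. With a pseudocount of 5 CPM the ratios of Foxa2 and Klf2 were 0.72 and 0.85. Ets1 had 14.5 CPM in C10 and 16.2 in SVEC, a log2 ratio of -0.15, which turned to 0.12 with TMM scaling and to 0.28 and 0.33 without SVEC replicates 4 and 46. TMM scaling moved the median log2 ratio of all genes compared from -0.000893 to 0.32 and the share of calls that were higher in C10 from 47.4 to 67.5%. On that scaling Foxa2 was at 1.38 and Klf2 at 2.70.

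Gata2, with 2.58 CPM in C10 and 0.99 in SVEC, did not reach the filter, and Foxa1, Erg and Fli1 were detected in too few cells to be compared. A higher share of cells with a count in C10 than in SVEC was seen for 84.3% of the genes compared, and C10 cells were read more deeply. Drawn down to 100000 counts per cell, the expected share of positive cells was 23.3% in C10 and 8.95% in SVEC for Foxa2, 13.1 and 3.49% for Klf2, 10.9 and 5.48% for Gata2, and 21.2 and 22.6% for Ets1. No cell was left out by this step, because each held more than that. The order of the lines was as in the whole counts for each of these genes.

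**Figure D4:**
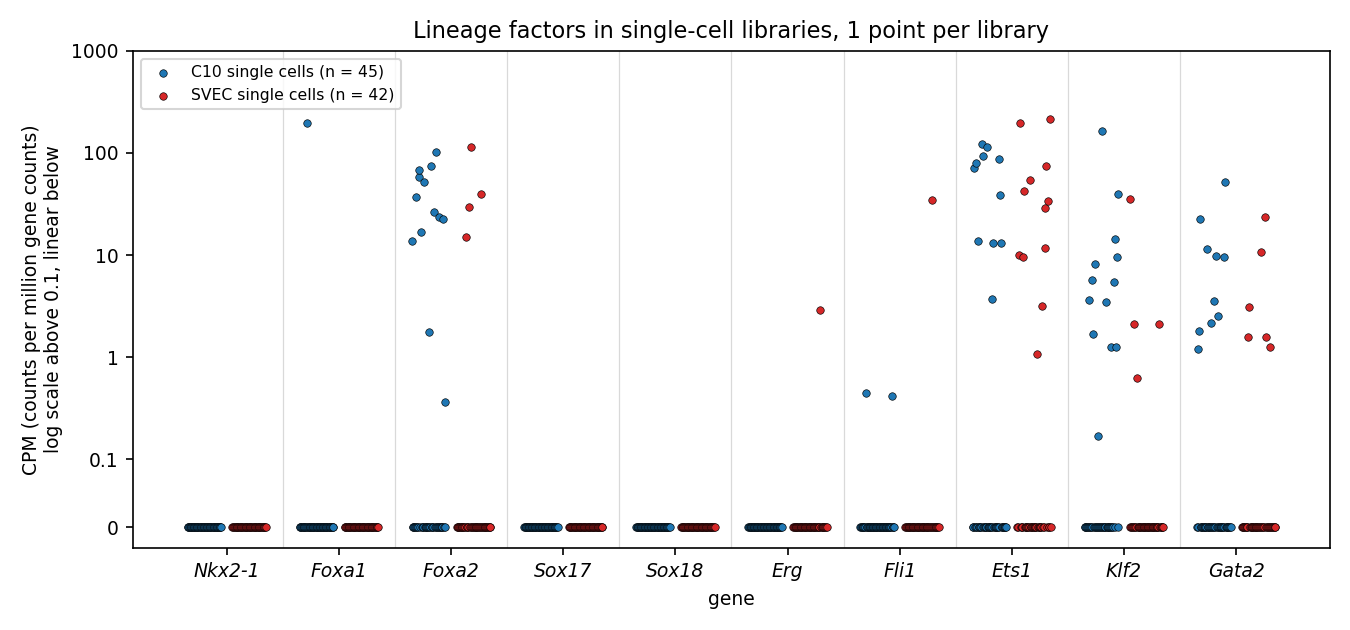
CPM of each lineage factor (log scale above 0.1, linear below) in 45 C10 and 42 SVEC single cells, 1 point per cell. Most cells are at 0 for every gene. Positive cells of both lines overlap for Foxa2, Ets1, Klf2 and Gata2, and Foxa1 is seen in 1 C10 cell at 196 CPM.

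Members were spread over different cells. Of the C10 single cells 13 had none of the members, 19 had 1, 8 had 2 and 5 had 3 or more. Of the SVEC cells 23 had none, 12 had 1, 5 had 2 and 2 had 3 or more. Every 10-cell pool held 3 or more, with a median of 4. In C10, Foxa2 and Klf2 were found together in 5 cells, where 3.76 would be found if they were independent, and Foxa2 and Ets1 in 3, where 3.18 would be. In SVEC, Ets1 and Gata2 were found together in 4 cells, where 1.71 would be. These computed numbers take no account of depth. SVEC cells with a count of Ets1 had a median of 730272 gene counts, against 479444 in those without. For Gata2 the medians were 913276 and 434945, and the part of depth in the shared cells was not tested. The C10 cell with Foxa1 also held Foxa2, at 58.7 CPM. These are descriptions with no test. No member had a count in 50% or more of the cells of a line, the highest share being 28.9%, so no genes of like pattern were sought.

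Relatives of the members were read in C10 to a degree that differed by family. Of all gene symbols, 55.9% had no count in the 10-cell pools and 20.3% were in every pool. Of 27 ETS family genes, 18 had a count in the 10-cell pools and 8 were in every pool, among them Ets2 at 63.5 ± 33.0 CPM, Etv6 at 24.6 ± 24.4 and Elf2 at 21.9 ± 12.4 (SD, n = 6). Of 17 KLF genes, 13 had a count and 6 were in every pool, led by Klf6 at 182 ± 43.8 CPM, and Klf4, which also acts in endothelium, was at 29.4 ± 19.9 CPM. Of 6 GATA genes, 4 were in every pool: Gata2, Gata3, Gata4 and Gata6, the last of which acts in lung endoderm, at 41.5 ± 40.9 CPM. Of 20 SOX genes, 6 had a count and 2 were in every pool, Sox12 and Sox5, while Sox7, the third SoxF gene, was at 0. Of 10 Foxa and Nkx2 genes, Foxa2 and Nkx2-2 (7 counts in 1 pool) were the 2 with a count, and Foxa3 was at 0 in all 5 groups.

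Among 26 other lung factors, 10 were in every 10-cell pool: Cebpd, Etv5, Foxp1, Gata6, Grhl2, Id2, Tead1, Tfcp2l1, Wwtr1 and Yap1. Grhl2, a factor of epithelial junction genes, was at 6.30 ± 13.2 CPM (SD, n = 6). The 5 highest by mean CPM in the C10 single cells were at 46.4 (Id2), 11.9 (Wwtr1), 6.73 (Gata6), 5.91 (Foxp1) and 5.63 (Tead1) CPM per kb. In SVEC the 5 highest by mean CPM had the same names, with Id2 at 338 and Foxp1 at 14.2 CPM per kb. Of the 9 that passed the filter between the lines, 1 was past 2-fold higher in C10 (Tfcp2l1) and 2 in SVEC (Foxp1 and Id2), beside 15.3% and 17% of all genes compared, with a median log2 ratio of -0.12 against -0.000893 over all genes compared. Among 27 other endothelial factors, 8 were in every 10-cell pool of C10. Of the 10 that passed the filter, Foxc1, Foxf1 and Klf4 were past 2-fold higher in C10 and Tcf4 and Zeb1 in SVEC, with a median log2 ratio of 0.11, where 15.3% and 17% of all genes compared were past 2-fold in these directions. The 5 highest by mean CPM in the C10 cells were at 22.7 (Klf4), 11.2 (Foxf1), 7.24 (Ets2), 3.68 (Elf1) and 2.71 (Nr2f2) CPM per kb. In SVEC the 5 highest by mean CPM were Tcf4 (66.2 CPM), Zeb1 (43.4), Etv6 (32.8), Nr2f2 (31.5) and Nfatc1 (26.0). These CPM values are not corrected for length and set no order between genes: Klf4, outside that 5, was at 6.97 CPM per kb in SVEC and Etv6 at 5.48.

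Of 22 genes that lung factors are known to act on or that mark lung epithelium, 4 passed the filter between the lines. None of the 4 was past 2-fold, where 32.3% of all genes compared were. Sftpa1, Sftpb, Sftpc and Sftpd, which encode surfactant proteins, were at 0 in the 10-cell pools. Sftpb and Sftpd had a count in the 3-cell pools. Of 23 genes of the endothelial list, 6 passed the filter, with Thbd (thrombomodulin) past 2-fold higher in C10 and Flt1 (a VEGF receptor) in SVEC. Of all genes compared, 15.3% were past 2-fold higher in C10 and 17% in SVEC. Thbd was in 48.9% of C10 cells at a mean of 18.9 CPM and had no count in SVEC. Mean CPM of Flt1 was 0.605 in C10 cells and 13.0 in SVEC cells. Kdr, the main VEGF receptor of endothelium, had no count in any group, and Cdh5 (VE-cadherin) had a count in 1 cell of each line and in 5 of 6 10-cell pools at 0.437 CPM on average.

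**Figure D5:**
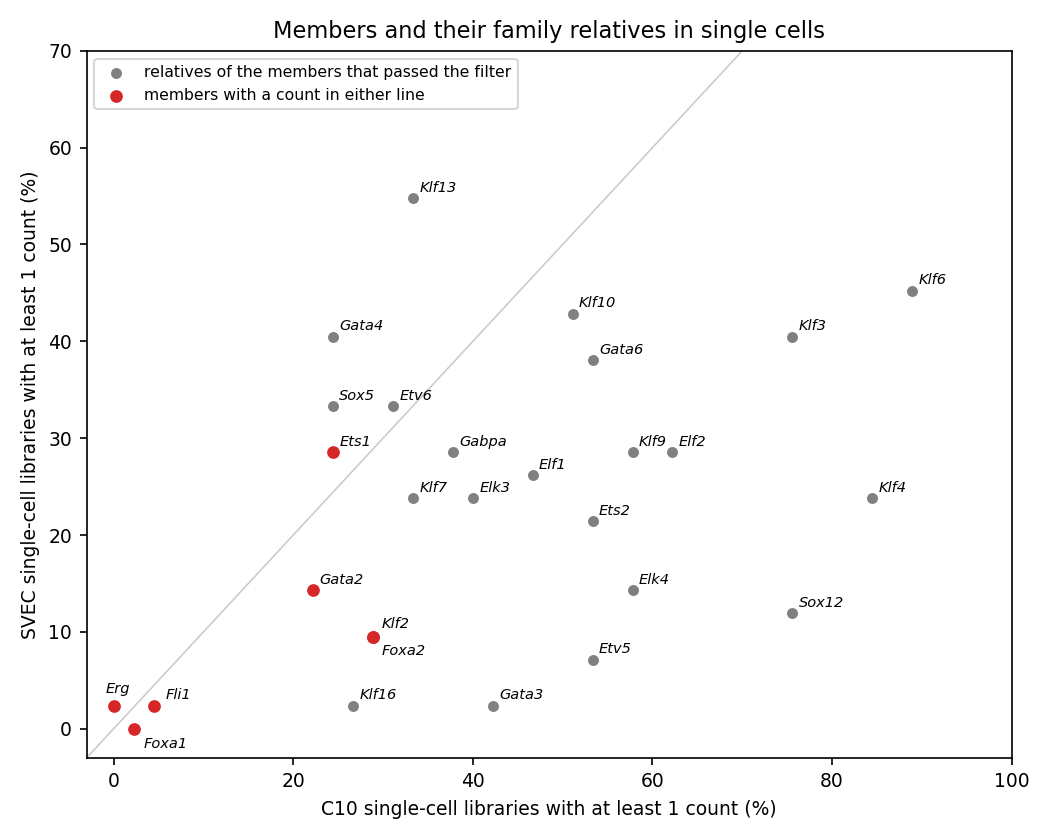
Percent of C10 (x axis) and SVEC (y axis) single cells with at least 1 count for the members with a count in either line (red) and for the ETS, KLF, SOX and GATA relatives that passed the 25% filter (grey), with the line of equal shares. Members lie at or under 28.9% on both axes, and Klf6, Klf4, Klf3 and Sox12 lie above 75% in C10.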

How the data were processed

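The deposited files held whole-number read counts per gene symbol, 1 file per library, in the layout of htseq-count. FastQC, STAR and HTSeq are named in the submitters' processing notes; their versions, the genome build, annotation and strand setting are not given in the sources used here. Libraries were made with SMART-Seq v4 Plus, a full-length cDNA kit, and read singly over 150 bases, per the labels. The 5 closing counters, 24.5 to 95.9% of reads in the kept libraries, name no gene and were left out.

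The members and gene lists were chosen with earlier results of these data known. All 10 members were to be named. Counts were scaled to CPM over gene counts. Libraries with under 100000 gene counts (9) were left out. Detection meant at least 1 count. No pair of libraries in a group was identical (lowest chi-square per degree of freedom 17.1). Pools were compared with edgeR 4.0.16 (quasi-likelihood, TMM, Benjamini-Hochberg), over genes with a count in at least 50% of either group, with DESeq2 1.42.0 and limma 3.58.1 as alternatives. Both the edgeR fit and the fold rule were tested on simulated data. Gene lengths and sequences came from GENCODE M21 (GRCm38); 1 further sequence comparison is not reported here.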

Additional observations from a re-analysis of the deposited data

Results flagged for a closer look

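In the input series, 19 sets of values (a member within a library group) held any count and could be checked for a library far from the rest; 11 held only zeros. Of these, 9 had a highest library whose gap to the next, over the whole range on the log2(CPM + 1) scale, was above Dixon's critical value, where chance would give about 1 in 20, or 0.95 sets. The sets are mostly zeros, for which a single positive library suffices.

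Among the 8 1-cell libraries, Gata2 stood at 86.0 CPM in replicate 10, and the next highest was 0.143 CPM. In the same library Erg stood at 3.51 CPM against 0 in the other 7. Klf2 stood at 54.8 CPM in replicate 13, Sox18 at 0.127 CPM in replicate 5 and Fli1 at 0.0716 CPM in replicate 6, each against 0 in the others. The last pair were 1 count each. Among the 6 3-cell pools, Klf2 stood at 11.0 CPM and Nkx2-1 at 0.0713 CPM in replicate 6, and Erg at 0.0854 CPM in replicate 5, against 0 in the others. The Nkx2-1 and Erg values were 1 count each. Among the 10-cell pools, Sox18 stood at 4.50 CPM in replicate 2, on 57 counts, against 0 in the other 5.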

How the results depend on the processing

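The number of members detected in each library group kept within 1.5 times its value at thresholds of 3 and 10 counts and at library minima of 1000 and 500000 counts. That tolerance allowed losses. At 10 counts Erg and Klf2 were no longer detected in the SVEC cells, nor Fli1 in the C10 single cells. Nkx2-1 and Erg were lost in the 3-cell pools, and Sox18 and Fli1 in the 1-cell libraries. Of the shares of positive libraries recomputed for single members, 223 stayed within the interval of the main share and 27 left it; Klf2 in SVEC went from 9.52 to 2.38% at 3 counts and 0% at 10 counts, and Klf2 and Gata2 in the 10-cell pools from 83.3 and 100% to 34.1 and 45.4% when drawn down to 100000 counts. For C10 against SVEC, the number past 2-fold went from 3011 to 5685 with no filter and to 1658 with detection in 50% of a line, under which no member was compared. Those higher in C10 went from 1427 to 2514, 896 and, with TMM, 2163, and those higher in SVEC from 1584 to 3171, 762 and 1043. Leaving out each single cell in turn, an alternative chosen after seeing the data, gave log2 ratios of 0.80 to 1.98 for Foxa2, 0.68 to 2.60 for Klf2 and -0.39 to 0.33 for Ets1. For the pools, edgeR called 0 genes in each of its settings, including each left-out library, while DESeq2 called 564 and limma 14. The cause was not tested.

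Pools of 10 and 3 cells share replicate numbers, but the deviations of same-numbered pools correlated at -0.02 to 0.05, and 2 of 6 correlated best with their own number. With 6 pairs of pools of few cells, this cannot settle whether same-numbered pools share more than a number. With the replicate block edgeR called 0 genes (1284 at an unadjusted p under 0.05), and Ets1 turned from -0.39 to 1.24 on the log2 scale. Klf2 moved from 1.31 to 6.24, Gata2 from 1.69 to 5.54 and Foxa2 from -0.99 to -0.51. Ets1 also turned with limma (1.13), and with each pool left out in turn its value ran from -0.63 to 0.000697 (without 3-cell replicate 9). SVEC cells had a median of 517518 gene counts, so that 3 counts correspond to 5.80 CPM in such a cell, and low members can be missed there.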

Other observations

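Mesenchymal transcription factors were read in both lines. Snai2, a zinc-finger factor of mesenchymal transition, had a count in 60.0% of C10 cells and 40.5% of SVEC cells, at means of 74.3 and 113 CPM, and was in all 6 10-cell pools at 104 ± 46.3 CPM (SD, n = 6). Twist2, a factor of dermal and other mesenchyme, had means of 3.98 CPM in C10 cells and 19.3 CPM in SVEC cells, a log2 ratio of -2.02. Prrx1, a limb and craniofacial mesenchyme factor, had a count in 40.5% of SVEC cells and in none of the 45 C10 cells, while 1 of the 6 C10 10-cell pools held 75 counts of it (7.36 CPM). Zeb1, counted above among the other endothelial factors, had means of 3.90 and 43.4 CPM in C10 and SVEC cells. Lum, Tbx5 and Tcf21 were at 0 in each of the 5 groups. With 1 sample a line, none of these differences was tested.

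Sox9, a progenitor factor of the distal lung and of cartilage, had 281 counts in 5 of 42 SVEC cells and none in the 45 C10 cells, and 28 counts in 1 of the 6 C10 10-cell pools. In the SVEC cell that held Erg, Fli1 and Ets1 together, the endothelial factors Ets2 (79 counts), Klf4 (68), Tcf4 (35), Etv6 (23) and Nr2f2 (7) were also read. No other gene of the list of 27 other endothelial factors had a count in it, nor did Sox17, Sox18, Klf2 or Gata2. The same cell held 26 counts of Prrx1 and 39 of Col1a1.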
